A study of Mus musculus with 12 samples.

Results

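The genes described here encode the CD28 family and a group of inhibitory receptors of T cells: *Cd28*, *Ctla4*, *Icos*, *Pdcd1*, *Btla*, *Lag3*, *Havcr2*, *Tigit*, *Cd5* and *Cd200*. They were chosen by gene symbol and make up 10 of the 49585 genes with counts in the 12 libraries. CD4 T cells were taken from lymph nodes of female mice with a kit for naive CD4 cells and activated for 20 h on plates coated with antibodies to CD3 (5 ug/ml) and CD28 (1 ug/ml). Controls were Rnmt fl/fl CD4cre - and *Rnmt* cKO (conditional knockout) mice were Rnmt fl/fl CD4cre +, so both genotypes carried the floxed *Rnmt* alleles and differed in Cre, which the *Cd4* regulatory elements switch on during thymic development. All cells were held in 0.1 mg/ml cycloheximide for 1 min before lysis. From each genotype 3 libraries of total cytoplasmic RNA and 3 of ribosome protected fragments (RPF) were made, with 15079703 to 22629563 reads on genes in total RNA and 4123271 to 10661356 in RPF. The age of the mice is not given in the sources used here, and p-values measure the spread between these samples.

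A T cell responds to antigen through its T cell receptor, and how strongly it responds is set by a further layer of receptors. CD28 and ICOS add a stimulating signal, whereas CTLA-4, PD-1 (encoded by *Pdcd1*), BTLA, LAG-3, TIM-3 (encoded by *Havcr2*), TIGIT and CD5 restrain it, many of them through phosphatases recruited to their cytoplasmic tails, and CD200 restrains other cells that carry its receptor. CD28 and BTLA are present on resting cells, while most of the others are induced by activation. RNMT methylates the guanosine cap at the start of mRNA, which is needed for stable and well translated transcripts.

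The genotype labels were checked first with *Rnmt* itself (ENSMUSG00000009535). CPM values of *Rnmt* (read counts relative to library size, scaled between libraries by the TMM method) in total RNA were 95.5, 94.1 and 94.3 in controls and 29.3, 32.4 and 30.4 in *Rnmt* cKO cells. In RPF they were 104, 87.9 and 98.9 in controls and 10.5, 10.4 and 9.60 in *Rnmt* cKO cells. The genotypes stood far apart in both kinds of library, as the labels require. The log2 fold change, here always *Rnmt* cKO over control, was -1.62 (SE 0.06, adjusted p = 5.84e-06) in total RNA and -3.24 (SE 0.10, adjusted p = 4.81e-06) in RPF, by the quasi-likelihood test of edgeR with p-values adjusted over all genes. Counts per gene do not resolve exon 3, the exon that Cre removes, so the reads that remained may lie outside it.

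Markers of CD4 T cells were present in every library. *Cd4* stood at 350.1, 324 and 316 CPM in total RNA of controls and 298, 271 and 315 in *Rnmt* cKO cells. All 9 identity genes were above the filter, and their summed level was 2382, 2306 and 2262 CPM in controls and 1672, 1602 and 1813 CPM in *Rnmt* cKO cells, led by *Cd3d*. Of these 9 genes 3 fell in total RNA and 1 rose, where 28.0% of all genes tested fell and 26.3% rose. The largest fall was that of *Cd3g*, a subunit of the CD3 complex (log2 fold change -1.23, SE 0.11, adjusted p = 7.52e-05). Myeloid and dendritic cell genes were close to absent, with 8 of 9 markers below 1 CPM in each total RNA library and *Cd68* giving 66.0% of their reads.

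Traces of other lymphocytes were not equal between libraries. The 7 B cell markers summed to 9.97, 6.51 and 36.4 CPM in total RNA of controls and to 94.1, 112 and 21.0 CPM in *Rnmt* cKO cells, led by *Ms4a1*, with none at 0 in all libraries. They were thus highest in *Rnmt* cKO 1 and 2, and control 3 lay above *Rnmt* cKO 3. Of 5 B cell markers tested 3 rose in total RNA. CD8 T cell markers, led by *Cd8a*, summed to 21.4, 21.4 and 41.7 CPM in controls and 26.4, 21.3 and 9.85 CPM in *Rnmt* cKO cells. NK cell markers summed to 3.29, 4.98 and 4.47 CPM in controls and 24.7, 39.0 and 23.8 CPM in *Rnmt* cKO cells, and 84.9% of these reads came from *Eomes*, which activated T cells can also express. Both NK markers tested, *Eomes* and *Klrk1*, rose in total RNA, *Klrk1* by a log2 fold change of 1.00 (SE 0.35, adjusted p = 0.0422). The defining NK genes were too sparse for the test, but they were higher in every *Rnmt* cKO library than in every control. *Ncr1* gave 0.106, 0.106 and 0 CPM in controls and 0.475, 0.619 and 0.389 CPM in *Rnmt* cKO cells. *Klrb1c* gave 0, 0 and 0.0539 CPM in controls and 0.339, 0.464 and 0.259 CPM in *Rnmt* cKO cells, and *Klre1* was also without overlap. Regulatory T cell markers summed to 194, 208 and 219 CPM in controls and 333, 422 and 316 CPM in *Rnmt* cKO cells, and 86.1% of this was *Il2ra*, which is also an activation gene. Of 5 regulatory T cell markers tested 4 rose in total RNA: *Il2ra* (log2 fold change 0.81, adjusted p = 0.000723), *Ikzf2* (1.12, adjusted p = 0.000131), *Ikzf4* (1.11, adjusted p = 0.00150) and *Lrrc32* (1.04, adjusted p = 0.0396). The defining *Foxp3* was below 1 CPM in each total RNA library, and in RPF it gave 5.17, 6.63 and 6.25 CPM in controls and 4.33, 5.47 and 6.15 CPM in *Rnmt* cKO cells (log2 fold change -0.19, adjusted p = 0.562). Of follicular helper markers, led by *Sh2d1a*, 3 were tested in total RNA and 1 rose. This was *Cxcr5* (log2 fold change 1.67, SE 0.58, adjusted p = 0.0398). It went from 0.849, 0.741 and 1.94 CPM in controls to 5.50, 4.80 and 1.25 CPM in *Rnmt* cKO cells, with control 3 above *Rnmt* cKO 3. The defining *Bcl6* passed neither in total RNA (log2 fold change -0.15, adjusted p = 0.666) nor in RPF (0.04, adjusted p = 0.913). In RPF 1 of 4 rose, *Sh2d1a* (0.49, adjusted p = 0.0335), while *Cxcr5* did not pass (1.70, adjusted p = 0.0529). In such bulk samples, fewer cells of a type and less RNA per cell cannot be told apart. B cells also carry BTLA, CD200 and CD80, NK cells TIM-3 and TIGIT, and regulatory T cells CTLA-4, ICOS and TIGIT. *Rnmt* cKO 1 and 2 held more reads of B cell, CD8 T cell and follicular helper markers than *Rnmt* cKO 3, while NK and regulatory T cell markers were nearly as high in *Rnmt* cKO 3 as in *Rnmt* cKO 1. The part of any of these cells in the results below was not tested.

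**Figure D1:**
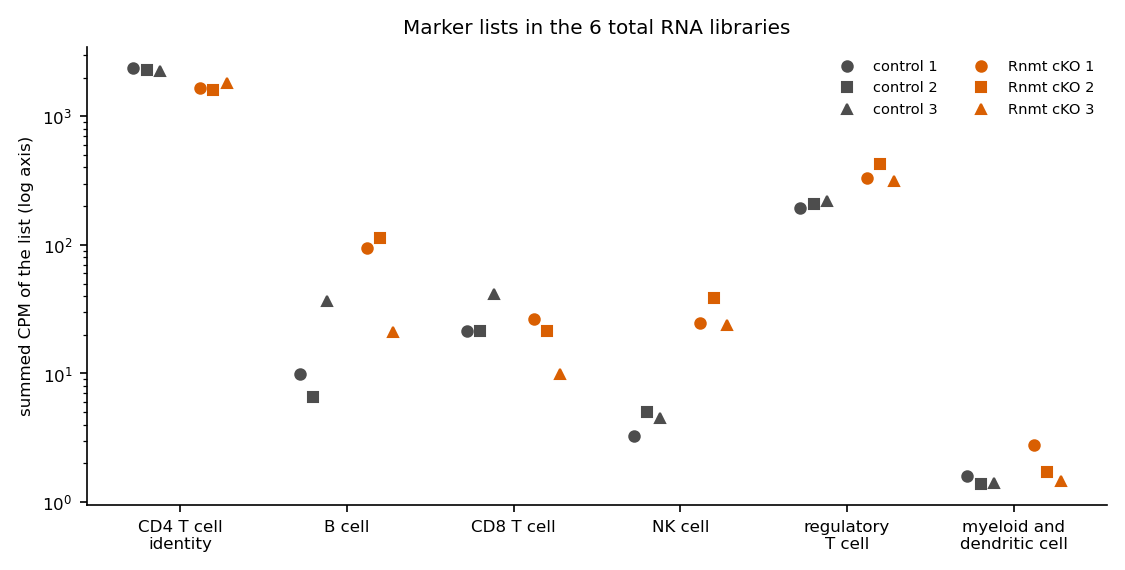
Summed CPM (log axis) of 6 marker lists in each total RNA library, with control libraries in grey, *Rnmt* cKO libraries in orange and the symbol giving the library number. B cell markers are highest in *Rnmt* cKO 1 and 2 (94.1 and 112 CPM), while CD4 T cell identity genes are at 1602 CPM or more in all 6 libraries.

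All 10 receptor genes are protein-coding, and several are neighbours in the mouse genome (GRCm38). *Cd28* (chr1:60716800-60773359, plus strand), *Ctla4* (chr1:60887000-60915832, plus) and *Icos* (chr1:60977927-61000320, plus) lie one behind the other within 284 kb, while *Pdcd1* (chr1:94038305-94052553, minus) is elsewhere on the same chromosome. *Btla* (chr16:45224315-45257670, plus) and *Cd200* (chr16:45382135-45409053, minus) are 124 kb apart, and *Tigit* (chr16:43648867-43664146, minus) lies 1560 kb from *Btla*. The others are *Lag3* (chr6:124904361-124911705, minus), *Havcr2* (chr11:46454935-46481255, plus) and *Cd5* (chr19:10717116-10739002, minus). A pseudogene, *Rpl18-ps1*, overlaps *Ctla4* and a provisional gene model, *Gm37039*, overlaps *Icos*, each on the same strand, and ambiguous reads were not counted for any gene, so that reads in a shared stretch may be missing from both.

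The members covered more than 3 orders of magnitude in level. Per kilobase of exon (RPKM) in total RNA of controls, *Cd28* was highest at 252 ± 11.5 (SD, n = 3), followed by *Cd5* (151 ± 12.1), *Btla* (128 ± 5.36), *Cd200* (94.9 ± 6.61) and *Ctla4* (80.6 ± 9.55). The ranges of these neighbours did not overlap. *Icos* (56.2 ± 2.58) and *Pdcd1* (52.0 ± 4.78) came next and did overlap, and *Lag3* (13.3 ± 0.936), *Tigit* (1.41 ± 0.304) and *Havcr2* (0.0983 ± 0.0598) ended the order. Per kilobase of coding sequence in RPF, *Cd28* (1333 ± 97.6 RPKM) and *Cd5* (846 ± 47.9 RPKM) again led. *Cd200* (249 ± 11.1), *Icos* (242 ± 22.2), *Ctla4* (210 ± 31.9), *Btla* (205 ± 18.7) and *Lag3* (178 ± 14.1) followed closely in RPF RPKM, and among these each neighbouring pair overlapped in range except *Btla* and *Lag3*. *Pdcd1* (112 ± 11.6), *Tigit* (21.6 ± 5.38) and *Havcr2* (0.227 ± 0.277) were lowest in RPF RPKM. *Lag3* therefore stood much nearer to the other receptors in ribosome-bound reads than in RNA.

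**Figure D2:**
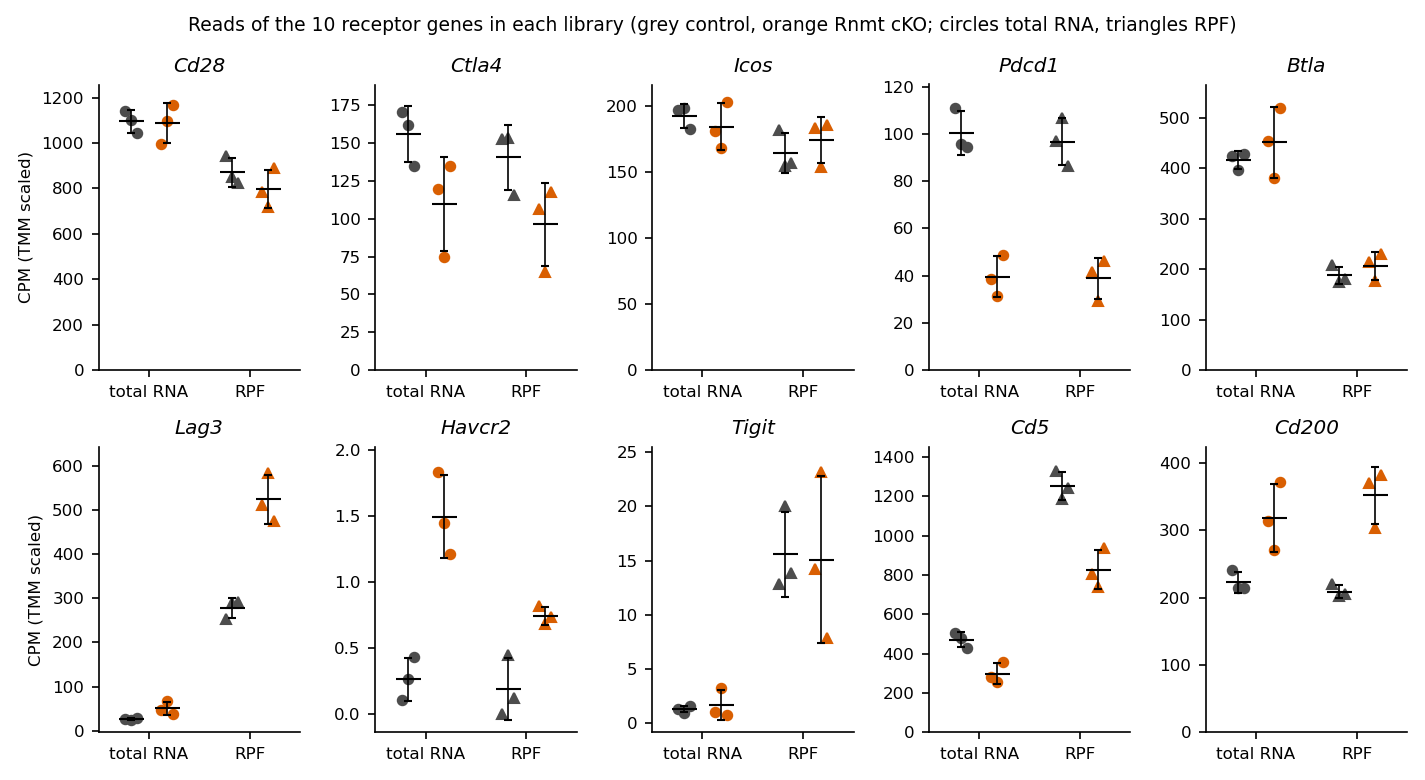
CPM (linear axis, scaled between libraries) of each of the 10 receptor genes in total RNA (circles) and RPF (triangles), grey for the 3 control and orange for the 3 *Rnmt* cKO libraries, with the mean and SD in black. *Pdcd1* and *Cd5* are lower and *Lag3* and *Cd200* higher in *Rnmt* cKO cells in both kinds of library, without overlap.

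In total RNA 9 members exceeded 1 CPM in all 3 controls and so passed the filter on low counts without the *Rnmt* cKO libraries, while *Havcr2* exceeded 1 CPM in the 3 *Rnmt* cKO libraries alone and entered the test through them. Of the 9, in *Rnmt* cKO cells 2 rose (*Lag3*, *Cd200*), 2 fell (*Pdcd1*, *Cd5*) and 5 did not pass. Of all 11519 genes tested, 26.3% rose and 28.0% fell, so the share of the 9 that changed was near that of all genes. The median log2 fold change of the 10, *Havcr2* included, was 0.05 against -0.00370 for all genes. Among the 9 the middle value was that of *Cd28*, -0.01. These changes are relative to the RNA sequenced from each library and not to the cell.

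Of the costimulatory members, *Cd28*, the founding receptor of the family and the one engaged by the plate-bound antibody, gave 1143, 1102 and 1043 CPM in controls and 996, 1098 and 1169 CPM in *Rnmt* cKO cells. The genotypes overlapped fully. Its log2 fold change was -0.01 (SE 0.07, 95% confidence interval -0.18 to 0.16, adjusted p = 0.915). *Icos*, which is induced by activation and helps T cells to support B cells, gave 197, 199 and 183 CPM in controls and 182, 168 and 204 CPM in *Rnmt* cKO cells. These too overlapped, with a log2 fold change of -0.06 (SE 0.08, interval -0.24 to 0.12, adjusted p = 0.518).

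*Ctla4*, which competes with CD28 for the ligands CD80 and CD86, gave 170, 162 and 135 CPM in controls and 119.7, 74.7 and 134.6 CPM in *Rnmt* cKO cells. The lowest control barely exceeded the highest *Rnmt* cKO library, and *Rnmt* cKO 2 was well below the rest. The log2 fold change of -0.51 (SE 0.20, interval -0.96 to -0.05) missed the threshold with an adjusted p of 0.0590. Without *Rnmt* cKO 2 the log2 fold change shrank to -0.27 (adjusted p = 0.0618). It passed without *Rnmt* cKO 3 (log2 fold change -0.67, adjusted p = 0.018), and with the exact test of edgeR (-0.51, adjusted p = 0.0275), DESeq2 (-0.49, adjusted p = 0.0144), upper quartile factors (-0.56, adjusted p = 0.0432) or no filter on low counts, and over all alternatives its adjusted p ran from 4.64e-09 to 0.284.

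*Pdcd1*, the gene of PD-1, gave 111, 95.7 and 94.6 CPM in controls and 38.6, 31.4 and 48.6 CPM in *Rnmt* cKO cells. Every *Rnmt* cKO library was below every control. It fell by 1.34 on the log2 scale (SE 0.15, adjusted p = 0.000213), or 2.54-fold, the largest fall among the members. *Btla*, which binds the TNF receptor HVEM, gave 425, 397 and 428 CPM in controls and 455, 380 and 520.2 CPM in *Rnmt* cKO cells. Its genotypes overlapped because *Rnmt* cKO 2 was lowest of all, and the log2 fold change of 0.12 (SE 0.11, interval -0.14 to 0.37, adjusted p = 0.393) did not pass. Without *Rnmt* cKO 2 it did (0.24, adjusted p = 0.0432), as it did without *Rnmt* cKO 1 and 2 (0.35, adjusted p = 0.0124), and over all alternatives its adjusted p reached 0.909.

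Outside the CD28 family, *Lag3*, a relative of CD4 that binds MHC class II, gave 27.2, 24.5 and 28.0 CPM in controls and 46.2, 67.2 and 39.0 CPM in *Rnmt* cKO cells. All *Rnmt* cKO libraries were higher, *Rnmt* cKO 2 most of all. The summed B cell, NK cell and regulatory T cell markers were also highest in *Rnmt* cKO 2, and their part in this rise was not tested. *Lag3* rose by a log2 fold change of 0.93 (SE 0.19, adjusted p = 0.00363), or 1.91-fold. Without *Rnmt* cKO 1 and 2, which leaves 1 library of the genotype, the rise was 0.58. *Havcr2*, the gene of TIM-3, a marker of persistently stimulated T cells, had only 2, 5 and 8 reads in controls and 27, 28 and 28 in *Rnmt* cKO cells. This amounts to 0.106, 0.265 and 0.431 CPM against 1.83, 1.44 and 1.21 CPM, with no overlap. The fitted log2 fold change was 2.43 (SE 0.40, adjusted p = 0.00133), at a level near the floor of 3 reads per library in controls. Because the *Rnmt* cKO libraries alone carried it past the filter, a gene that entered in this way had to differ, and the value is a description. Leaving out any *Rnmt* cKO library, or asking for 10 counts in every library, removed it from the test.

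*Tigit*, which binds the poliovirus receptor CD155, was sparse in RNA with 25, 19 and 29 reads (1.33, 1.01 and 1.56 CPM) in controls and 16, 64 and 17 reads (1.09, 3.30 and 0.734 CPM) in *Rnmt* cKO cells. *Rnmt* cKO 2 was highest and *Rnmt* cKO 3 lowest, and the interval of the log2 fold change of 0.39 (SE 0.53, adjusted p = 0.554) ran from -0.83 to 1.62. No change was detectable at this depth, which left sizeable shifts in either direction within the interval.

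*Cd5*, a scavenger receptor family member that dampens T cell receptor signals and tracks their strength in development, gave 505, 478 and 429.97 CPM in controls and 283, 255 and 359.6 CPM in *Rnmt* cKO cells. All *Rnmt* cKO libraries were lower, and *Rnmt* cKO 3 was nearest to controls. It fell by 0.65 on the log2 scale (SE 0.13, adjusted p = 0.00317), or 1.57-fold, and by 0.36 (adjusted p = 0.028) without *Rnmt* cKO 1 and 2. *Cd200*, whose product signals to the inhibitory CD200 receptor on other cells, gave 241, 214 and 214 CPM in controls and 313, 270.2 and 371 CPM in *Rnmt* cKO cells. All *Rnmt* cKO libraries were higher, most of all *Rnmt* cKO 3. It rose by a log2 fold change of 0.51 (SE 0.11, adjusted p = 0.00597), or 1.43-fold, and by 0.76 (adjusted p = 0.000712) without *Rnmt* cKO 1 and 2.

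RefSeq (GRCm38.p6) gave a promoter for 7 of the 10 members, and a link between these sequences and the changes was not tested. The 250 bases before the start were searched on both strands for GGAAA, the core bound by NFAT factors, and for TGANTCA, bound by AP-1 (Fos and Jun) factors, which reads the same on both strands. No match of one overlapped a match of the other. Of 32851 RefSeq promoters, 55.6% held GGAAA and 6.75% held TGANTCA in this window. The promoters of the 2 members that fell and of 2 that were higher, *Cd200* and *Havcr2*, are printed 5′ to 3′ along the gene, with matches in capitals, TTTCC being GGAAA on the other strand.

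Pdcd1 (fell), minus strand, chr1:94052554-94052803: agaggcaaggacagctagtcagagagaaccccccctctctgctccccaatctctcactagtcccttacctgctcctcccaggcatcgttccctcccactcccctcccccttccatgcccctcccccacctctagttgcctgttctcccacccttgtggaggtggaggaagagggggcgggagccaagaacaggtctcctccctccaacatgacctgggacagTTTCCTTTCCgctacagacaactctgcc
Cd5 (fell), minus strand, chr19:10738975-10739224: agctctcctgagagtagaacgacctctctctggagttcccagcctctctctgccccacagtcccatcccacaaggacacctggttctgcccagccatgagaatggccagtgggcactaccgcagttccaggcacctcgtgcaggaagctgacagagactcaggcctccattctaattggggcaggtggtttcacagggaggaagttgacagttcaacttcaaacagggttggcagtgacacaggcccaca
Cd200 (rose), minus strand, chr16:45409054-45409303: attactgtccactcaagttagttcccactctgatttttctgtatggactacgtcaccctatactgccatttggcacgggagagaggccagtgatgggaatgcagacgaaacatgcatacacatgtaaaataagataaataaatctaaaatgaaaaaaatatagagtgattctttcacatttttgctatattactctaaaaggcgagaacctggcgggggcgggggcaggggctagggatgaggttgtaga
Havcr2 (higher), plus strand, chr11:46454681-46454930: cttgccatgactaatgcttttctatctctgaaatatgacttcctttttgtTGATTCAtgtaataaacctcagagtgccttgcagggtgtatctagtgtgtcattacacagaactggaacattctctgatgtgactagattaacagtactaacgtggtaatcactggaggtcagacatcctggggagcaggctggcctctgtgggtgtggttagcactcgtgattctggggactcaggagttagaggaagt

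*Pdcd1* held 2 matches to GGAAA next to each other, from 28 to 19 bases before its start, and *Havcr2* held 1 match to TGANTCA, from 200 to 194 bases before its start. *Cd5* and *Cd200* held neither. Of the members that did not pass, *Tigit* held 2 matches to GGAAA, *Ctla4* held 1 and *Btla* none, and none of these 3 held TGANTCA. AAAGGTCA, which NR4A factors bind and 1.34% of promoters hold, was not found before any of the 7 members. RUNX factors bind TGTGGT, found in 14.0% of promoters and 1 time each before *Havcr2*, *Tigit* and *Btla*. The base composition also differed, with 60.4% G and C in *Pdcd1*, 56.8% in *Cd5*, 44.8% in *Havcr2* and 42.4% in *Cd200*, where the median of all promoters was 52.4%. A match is a description of these letters and not evidence of binding.

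RPF reads come from mRNA inside translating ribosomes, so that they follow both the amount of an mRNA and how densely it is read. In RPF 9 of the 10 members passed the filter. Of these 2 rose (*Lag3* and *Cd200*), 2 fell (*Pdcd1* and *Cd5*) and 5 did not pass, beside 14.1% of all 11428 genes that rose and 15.7% that fell. The median log2 fold change of the 9 was 0.01, as was that of all genes.

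*Pdcd1* gave 96.8, 106.6 and 86.5 RPF CPM in controls and 41.5, 29.3 and 46.0 in *Rnmt* cKO cells, without overlap. It fell by 1.33 on the log2 scale (SE 0.16, adjusted p = 0.000775). *Cd5* gave 1329, 1188 and 1243 RPF CPM in controls and 806, 739.98 and 936 in *Rnmt* cKO cells, again without overlap. It fell by 0.60 (SE 0.10, adjusted p = 0.00271), but without *Rnmt* cKO 1 and 2 the fall of 0.42 gave an adjusted p of 0.0509. *Lag3* gave 252, 290.2 and 290.6 RPF CPM in controls and 512, 584 and 476 in *Rnmt* cKO cells. The genotypes were well apart, with a log2 fold change of 0.92 (SE 0.09, adjusted p = 0.000372), or 1.89-fold. *Cd200* gave 219, 202 and 205 RPF CPM in controls and 369.8, 304 and 382 in *Rnmt* cKO cells, a 1.68-fold rise (log2 fold change 0.75, SE 0.09, adjusted p = 0.000807). Both rises passed without *Rnmt* cKO 1 and 2, at 0.77 (adjusted p = 0.0114) for *Lag3* and 0.87 (adjusted p = 0.00546) for *Cd200*.

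*Cd28* gave 944, 848 and 823 RPF CPM in controls and 784, 719 and 888 in *Rnmt* cKO cells, and *Rnmt* cKO 3 lay among the controls. Its log2 fold change was -0.13 (interval -0.34 to 0.08, adjusted p = 0.321). *Icos* gave 182, 155 and 157 RPF CPM in controls and 183, 154 and 186 in *Rnmt* cKO cells, and its log2 fold change of 0.08 had an interval of -0.14 to 0.30 (adjusted p = 0.562). *Btla* gave 208, 175 and 181 RPF CPM in controls and 215, 176 and 229.8 in *Rnmt* cKO cells, with overlap and an interval of -0.11 to 0.38 around 0.13 (adjusted p = 0.373).

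*Ctla4* gave 153, 153 and 116 RPF CPM in controls and 106, 65.1 and 118 in *Rnmt* cKO cells. Control 3 lay below *Rnmt* cKO 3, and *Rnmt* cKO 2 was again the lowest. The log2 fold change of -0.56 (SE 0.21, interval -1.03 to -0.09) had an adjusted p of 0.0734 and shrank to -0.33 (adjusted p = 0.121) without *Rnmt* cKO 2. It passed without *Rnmt* cKO 3 (-0.71, adjusted p = 0.034), with the exact test of edgeR (-0.55, adjusted p = 0.0499) and with no filter on low counts, with adjusted p from 3.50e-09 to 0.385 over all alternatives. *Tigit* gave 12.9, 20.0 and 13.9 RPF CPM in controls and 14.3, 23.1 and 7.87 in *Rnmt* cKO cells, with full overlap (log2 fold change 0.01, interval -0.75 to 0.78, adjusted p = 0.980). *Havcr2* was too sparse for the test in RPF, with 0, 3 and 1 reads in controls and 7, 7 and 3 in *Rnmt* cKO cells.

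Among the *Rnmt* cKO libraries, 8 members kept the same order of libraries in total RNA and RPF, whereas among controls *Cd28* was the 1 member that did. The share of all genes that kept their order was not computed, so these counts cannot be set against it. A different measure was the correlation, over 7453 genes, of deviations from group means in equally numbered total RNA and RPF libraries. It was 0.14, 0.22 and 0.34 in controls and 0.06, 0.35 and 0.17 in *Rnmt* cKO cells. *Rnmt* cKO 2 was lowest of its genotype for *Ctla4*, *Icos*, *Pdcd1*, *Btla*, *Cd5* and *Cd200* and highest for *Lag3* and *Tigit*, in total RNA and RPF alike. Libraries of equal genotype and number may come from 1 culture, which the labels do not state.

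**Figure D3:**
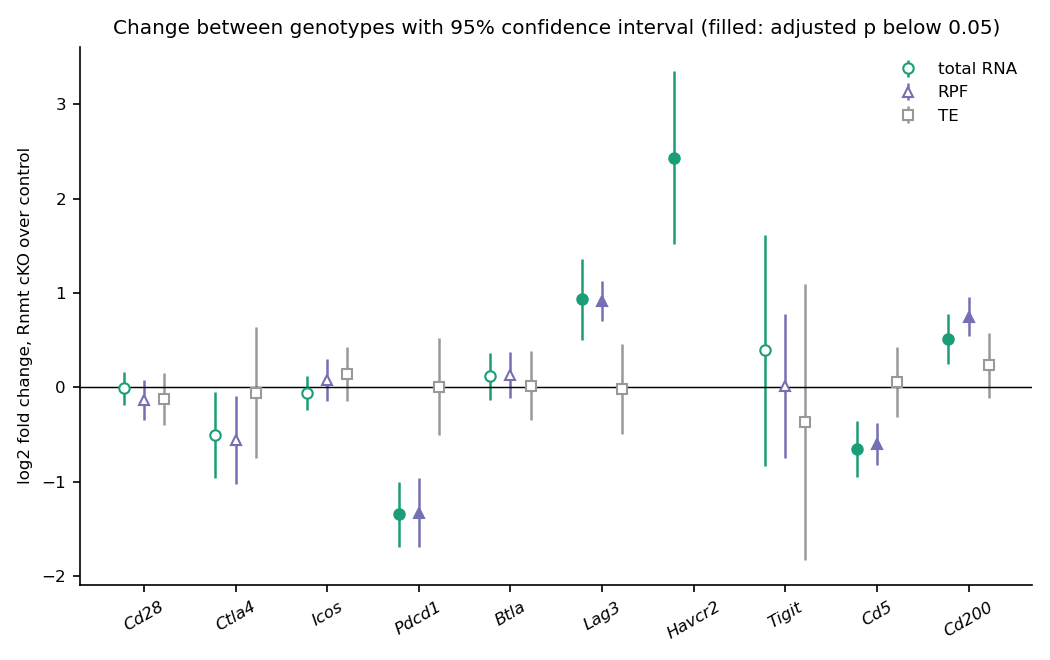
Log2 fold change of *Rnmt* cKO over control (y axis) of each receptor gene in total RNA (circles), RPF (triangles) and TE (squares) with 95% confidence intervals, filled where the adjusted p was below 0.05. *Pdcd1* and *Cd5* lie below 0 and *Lag3* and *Cd200* above 0 in total RNA and RPF, while every TE interval includes 0.

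Translation efficiency (TE) is the amount of RPF relative to total RNA, and a change in it was tested with an interaction term in a fit of the 12 libraries together. None of the 9 members tested changed in TE, where 3.24% of 10668 genes rose (346 genes) and 6.57% fell (701 genes). With upper quartile factors 481 genes rose and 604 fell in TE, still without a member. At an unadjusted p below 0.05 the count was also 0, and DESeq2 called none. Their median log2 change in TE was 0.01 against 0.04 for all genes. *Rnmt* itself fell in TE by 1.62 on the log2 scale (SE 0.11, adjusted p = 3.21e-06). Its counts do not resolve exon 3, which Cre removes, so this value may not be that of an intact mRNA, which was not tested.

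For the 4 members that changed in both kinds of library, the change in TE was small with intervals of unequal width. *Pdcd1* had a log2 change in TE of 0.01 (SE 0.24, interval -0.51 to 0.52, adjusted p = 0.995) and *Lag3* one of -0.02 (SE 0.22, interval -0.49 to 0.46, adjusted p = 0.982). *Cd5* had 0.06 (SE 0.17, interval -0.32 to 0.43, adjusted p = 0.890) and *Cd200* 0.24 (SE 0.16, interval -0.11 to 0.58, adjusted p = 0.395). The 2 rises and 2 falls in RPF were thus of about the size seen in total RNA, within these intervals. *Cd28* (-0.12, interval -0.39 to 0.16), *Icos* (0.14, interval -0.15 to 0.43) and *Btla* (0.02, interval -0.34 to 0.38) had narrower intervals than *Pdcd1* and *Lag3*. *Ctla4* (-0.06, interval -0.75 to 0.64) and *Tigit* (-0.37, interval -1.83 to 1.10) had the widest intervals of the members tested and were bounded poorly.

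The ratio of RPF CPM to total RNA CPM itself differed widely between members. *Lag3* had ratios of 9.26, 11.9 and 10.4 in controls and 11.1, 8.69 and 12.2 in *Rnmt* cKO cells, with libraries joined by number. The ratio of the control means, RPF over total RNA, was 10.45 and exceeded that of 99.4% of the 10668 genes. The shares of genes given below rest on the same ratio of means. *Tigit* had 9.70, 19.9 and 8.86 in controls and 13.1, 7.01 and 10.7 in *Rnmt* cKO cells, from few RNA reads. *Cd5* had 2.63, 2.49 and 2.89 in controls and 2.85, 2.90 and 2.60 in *Rnmt* cKO cells, above 90.9% of genes in controls. *Btla* was at the other end with 0.489, 0.442 and 0.423 in controls and 0.473, 0.464 and 0.442 in *Rnmt* cKO cells, and 10.8% of genes were lower in controls. *Cd28*, *Ctla4*, *Icos*, *Pdcd1* and *Cd200* had ratios of means of 0.796 to 0.962 in controls and 0.733 to 1.11 in *Rnmt* cKO cells. These lay below the median of all genes, 1.14 in controls and 1.15 in *Rnmt* cKO cells. The ratio is not per length, and a long UTR adds reads to total RNA and not to RPF.

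**Figure D4:**
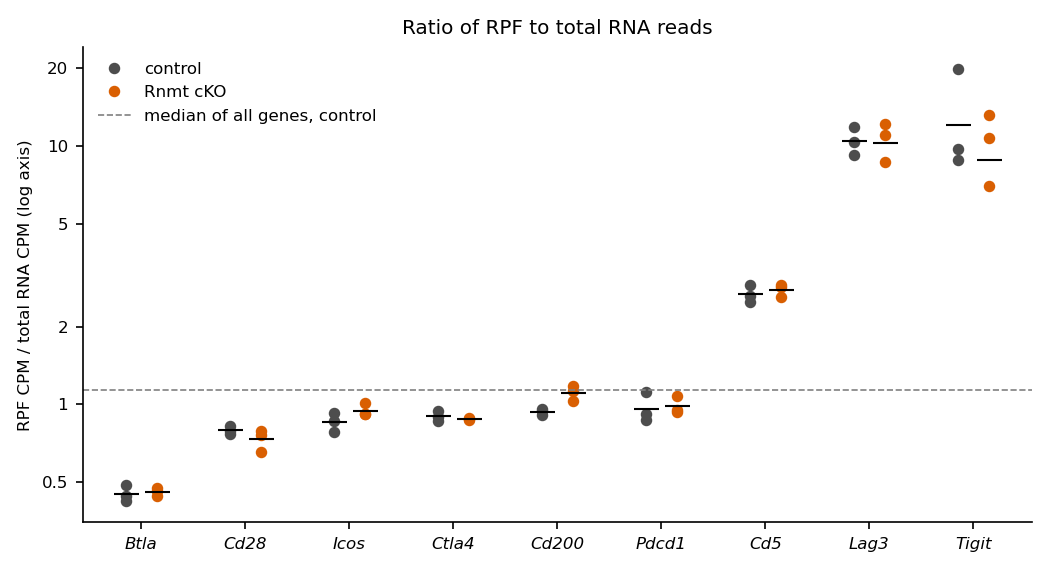
RPF CPM divided by total RNA CPM (log axis) for the 9 receptor genes tested in TE, with control libraries in grey, *Rnmt* cKO libraries in orange, the ratio of the means as a dash and the median of all genes (1.14 in controls) as a dashed line. *Lag3* and *Tigit* lie near 10 in both genotypes and *Btla* lies near 0.45.

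Most of the other co-inhibitory and co-stimulatory surface molecules of T cells that were tested fell. Of 15 such genes, not all of which encode receptors, 11 were tested in total RNA. Of these 8 fell and 2 rose, with a median log2 fold change of -0.83. Of all genes tested, 28.0% fell and 26.3% rose in total RNA, and 15.7% fell and 14.1% rose in RPF. These shares also stand beside the counts of each list below. *Nt5e*, the ectoenzyme CD73, fell most, from 32.8, 74.7 and 26.0 CPM in controls to 7.33, 8.20 and 8.60 CPM (log2 fold change -2.46, SE 0.39, adjusted p = 0.00110). *Cd101*, an inhibitory surface glycoprotein, fell by 1.72 on the log2 scale (SE 0.18, adjusted p = 0.000152). *Cd2*, an adhesion receptor that aids activation, rose from 84.3, 82.4 and 105.7 to 135.8, 136.3 and 126.4 CPM (log2 fold change 0.55, adjusted p = 0.00208). *Cd226*, the stimulating counterpart of TIGIT, rose from 64.0, 62.7 and 59.7 to 87.7, 84.6 and 94.1 CPM (log2 fold change 0.52, adjusted p = 0.000355). In RPF 8 of 11 fell and 1 rose, and in TE none of 11 passed. Whether this list differed from the 10 receptor genes was not tested.

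Of 15 ligands and counter-receptors 11 were tested in total RNA, where 3 rose and 3 fell (median log2 fold change 0.14). The rises include *Cd80*, a ligand of CD28 and CTLA-4 named here after its values were seen, which gave 0.318, 0.688 and 0.755 CPM in controls and 2.78, 2.53 and 3.67 CPM in *Rnmt* cKO cells. Like *Havcr2*, it entered the test through the *Rnmt* cKO libraries alone and had to differ. *Cd274*, the gene of PD-L1 and a ligand of PD-1, gave 59.3, 57.8 and 82.7 CPM in controls and 81.0, 96.7 and 91.0 CPM in *Rnmt* cKO cells, so that control 3 lay among the *Rnmt* cKO libraries. Its log2 fold change was 0.43 (SE 0.14, adjusted p = 0.0320). The second PD-1 ligand, *Pdcd1lg2*, fell from 19.3, 18.5 and 21.2 to 14.4, 12.1 and 13.8 CPM (log2 fold change -0.55, SE 0.10, adjusted p = 0.00234). *Tnfrsf14*, the gene of HVEM that BTLA binds, fell from 37.9, 38.5 and 37.5 to 26.6, 25.2 and 27.8 CPM (log2 fold change -0.52, SE 0.07, adjusted p = 0.000523). In RPF 2 of 11 rose and none fell, and none of 10 passed in TE.

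Of 19 genes of co-stimulatory signalling behind the receptors 4 rose and 6 fell in total RNA (median -0.03), shares near the 26.3% and 28.0% of all genes. *Lck*, the kinase that binds CD4 and phosphorylates the tail of CD28, fell from 364, 356 and 347 to 197, 177 and 199 CPM (log2 fold change -0.90, SE 0.06, adjusted p = 3.25e-05), and *Grap2*, an adaptor that CD28 recruits, fell by 0.72 (adjusted p = 4.81e-05). *Pik3cd*, the main catalytic subunit of PI3 kinase in lymphocytes, rose by a log2 fold change of 0.54 (adjusted p = 0.000133) and *Lcp2*, the adaptor SLP-76, by 0.51 (adjusted p = 0.00614). In RPF 3 of these 19 genes rose and 5 fell, and in TE 2 fell, *Lcp2* (-0.64, adjusted p = 0.016) and *Plcg1* (-0.43, adjusted p = 0.029), which was named after its value was seen.

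Of 19 genes of inhibitory signalling 4 rose and 7 fell in total RNA (median -0.19). *Dok1*, an adaptor that restrains Ras, rose from 21.1, 22.8 and 23.2 to 53.9, 54.1 and 56.9 CPM (log2 fold change 1.30, SE 0.07, adjusted p = 1.23e-05), and it fell in TE by 0.62 (adjusted p = 0.0018). *Cblb*, a ubiquitin ligase that makes activation depend on CD28, rose from 88.7, 90.8 and 120.6 to 195, 304 and 159 CPM (log2 fold change 1.13, SE 0.23, adjusted p = 0.00404). *Ubash3b*, a phosphatase of T cell receptor signalling, fell by 0.88 (adjusted p = 0.000383) and *Dgkz*, which removes diacylglycerol, by 0.75 (adjusted p = 9.44e-05). In RPF 2 of 19 rose and 7 fell, and *Dok1* was the 1 gene of 19 to pass in TE.

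Of 12 matched genes of surface traffic and shedding 11 were tested, where 1 rose and 2 fell in total RNA (median -0.09). *Trat1*, an adaptor that binds CTLA-4 and the T cell receptor and aids their surface expression, rose from 8.38, 9.11 and 9.81 to 18.1, 23.2 and 18.3 CPM (log2 fold change 1.13, SE 0.13, adjusted p = 0.000221). *Ap2a1*, a subunit of the adaptor of endocytosis, fell by 0.43 (adjusted p = 0.00824) and *Adam17*, a protease that sheds LAG-3, by 0.40 (adjusted p = 0.000853). In RPF 1 of 11 rose and 4 fell, and none passed in TE.

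Of 22 transcription factors known to act on the receptor genes 19 were tested in total RNA, where 9 rose and 2 fell (median 0.40). *Jun*, a partner in AP-1, rose from 5.36, 8.84 and 11.9 to 46.8, 52.6 and 40.7 CPM (log2 fold change 2.42, SE 0.24, adjusted p = 0.000128). *Tbx21*, the gene of T-bet, rose by 1.82 (SE 0.56, adjusted p = 0.0255), from 3.45, 7.46 and 24.1 to 45.7, 48.2 and 29.5 CPM, and control 3 was again nearest to the *Rnmt* cKO libraries. *Tox*, a nuclear factor of chronically stimulated T cells, fell by 0.70 (SE 0.11, adjusted p = 0.00104). In RPF 7 of 20 rose and 4 fell, and none of 19 passed in TE. Of 7 activation markers 5 rose and 1 fell in total RNA, while of 6 naive T cell markers 2 rose and 1 fell. *Tfrc*, the transferrin receptor and the most abundant activation marker, gave 843, 845 and 825 CPM in controls and 762, 828 and 868 CPM in *Rnmt* cKO cells. *Ccr7*, the most abundant naive marker, gave 882, 935 and 812 CPM in controls and 1288, 1359 and 1492 CPM in *Rnmt* cKO cells. In RPF *Ccr7* did not pass (log2 fold change 0.24, adjusted p = 0.0644), and it fell in TE by 0.41 (adjusted p = 0.0479). Of the 6 naive markers 1 rose and 3 fell in RPF, and of the 7 activation markers 5 rose and 1 fell. In TE 1 marker of each list fell.

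**Figure D5:**
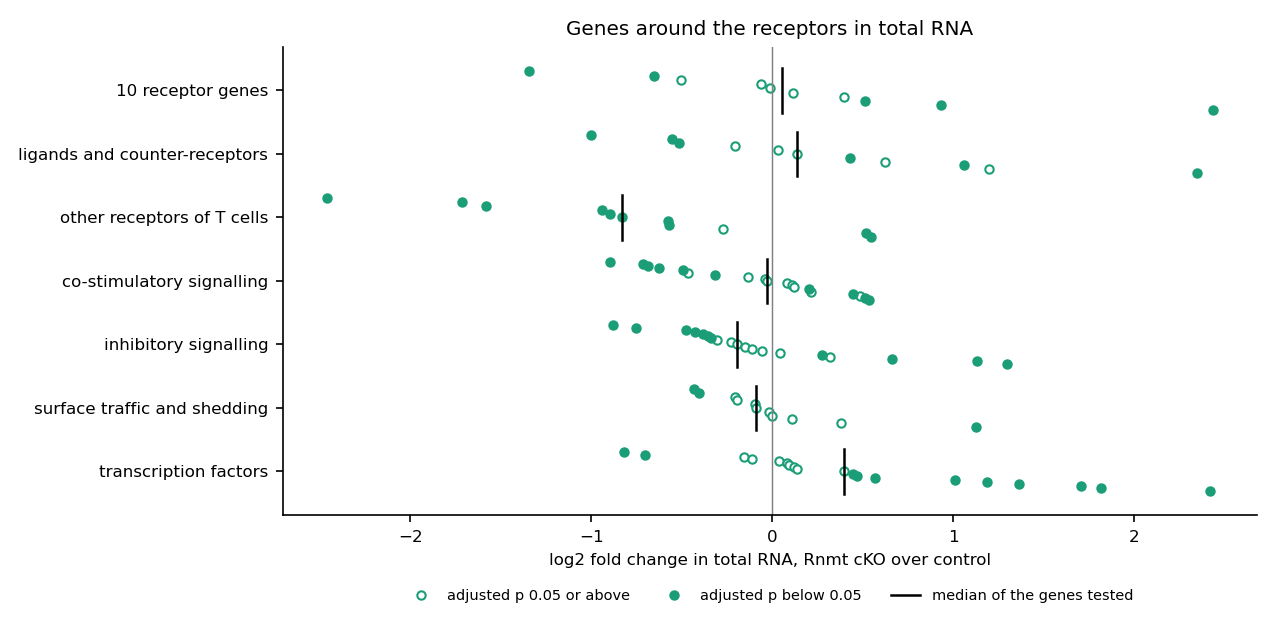
Log2 fold change in total RNA, *Rnmt* cKO over control (x axis), of each gene tested in the 10 receptor genes and in 6 lists around them, filled where the adjusted p was below 0.05, with the median of each list as a line. The 10 receptor genes, with *Havcr2* farthest to the right, spread on both sides of 0 (median 0.05). The list labelled other receptors of T cells, which includes the ectoenzyme gene *Nt5e*, lies mostly to the left (median -0.83).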

How the data were processed

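Reads were trimmed with cutadapt, freed of ribosomal RNA and tRNA with Bowtie and aligned to mm10 (GRCm38) with STAR 2.5.2b by the authors, who used the second read of each pair, and GENCODE release 12 guided their counting. The deposited files hold raw counts of reads per gene and library, not normalized, for both strands together and for each strand. A deposited table of 10126 genes also holds normalized signal values per library, which equalled the reverse strand counts times 1 factor per library and so set the strand, and the authors' fold changes and p-values, which were not used. Rows that name no gene (unmapped, multimapping, unassigned and ambiguous reads) held 41.1 to 47.1% of total RNA reads and 53.9 to 70.4% of RPF reads and were left out. Mitochondrial rRNA held 18.7 to 23.6% of gene counts in total RNA.

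Symbols and positions were taken from GENCODE release 21 (GRCm38), and 9 of the 10 members were also in the deposited table. A gene was tested if its CPM exceeded 1 in 3 or more of 6 libraries, in both kinds for TE. The quasi-likelihood test of edgeR 4.0.16 (R 4.3.3) with TMM factors compared 3 *Rnmt* cKO with 3 control libraries in total RNA and in RPF, and TE as an interaction over 12 libraries, where the authors had used RiboDiff, which was not run here. P-values were adjusted over all genes tested (Benjamini-Hochberg, 0.05). SE was the log2 fold change divided by the root of F. One read was worth 0.0432 to 0.0679 CPM in total RNA and 0.0939 to 0.246 CPM in RPF, and intervals cover counting and the spread between libraries but not duplicate reads.

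Named were *Rnmt*, all members and, per list, the 2 largest rises and the 2 largest falls called in total RNA whose average log2 CPM reached 2; of marker lists, the defining and most abundant genes, except a marker that is not reported here. *Cd3g*, *Klrk1*, *Klre1*, *Ikzf2*, *Ikzf4*, *Lrrc32* and *Cxcr5* were named after their values were seen. Members and lists were chosen with earlier results of these data known. The alternatives were library size alone, upper quartile factors, DESeq2 1.42.0, the exact test of edgeR, no filter, 10 counts in every library and both strands. Each library number was also left out, and a replicate block was fitted. For TE a further block joined total RNA and RPF libraries of equal genotype and number, which the labels do not tie to 1 animal. Leaving out *Rnmt* cKO 1 and 2 was chosen after seeing the data. Of 13 genes listed for surface traffic 12 could be matched.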

Additional observations from a re-analysis of the deposited data

Results flagged for a closer look

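Each of these is a value outside the tests that was higher in all 3 *Rnmt* cKO libraries than in all 3 controls. *Havcr2* was too sparse for the RPF test, but its mean in RPF was 0.747 CPM in *Rnmt* cKO cells (7, 7 and 3 reads) and 0.192 CPM in controls (0, 3 and 1 reads). Reads on the strand opposite to *Cd28* in total RNA, which the comparisons on the gene strand did not use, numbered 14, 13 and 19 in *Rnmt* cKO libraries (mean 0.814 CPM) and 4, 7 and 9 in controls. Opposite to *Cd200* they numbered 4, 8 and 6 (mean 0.314 CPM) against 3, 0 and 1. For these 2 genes the opposite strand held 0.0529% and 0.0710% of the reads of the gene strand, and the differences between genotypes on that strand were not tested.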

How the results depend on the processing

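Of 460 values of single genes under up to 15 alternatives each, 414 kept their direction and their side of the threshold, 10 newly passed it, 1 no longer passed it and 35 changed sign, in every case for a member that did not pass in that comparison with or without the change. *Pdcd1*, *Lag3* and *Cd200* passed in total RNA and in RPF under every alternative, with adjusted p of up to 0.00199, 0.0184 and 0.0275 in total RNA and 0.0131, 0.0114 and 0.00546 in RPF, and no member passed in TE under any. *Havcr2* could not be tested with 10 counts in every library or with any *Rnmt* cKO library left out. Members that rose in total RNA, *Havcr2* included where it was tested, numbered 2 or 3 and those that fell 2 or 3 under all alternatives, as *Ctla4* or *Btla* newly passed in some.

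The added alternative without *Rnmt* cKO 1 and 2, which leaves 1 library of that genotype whose spread is taken to be that of the controls, called 477 genes up and 520.0 down in RPF and 81 up and 294 down in TE, and 1 member (*Pdcd1*) down in RPF. The sign changes there were *Cd28* at 0.12, *Icos* at 0.11 and *Tigit* at -0.79 in total RNA, *Cd28* at 0.023 and *Tigit* at -0.98 in RPF, and *Pdcd1* at -0.042, *Btla* at -0.054, *Lag3* at 0.20 and *Cd5* at -0.054 in TE. With library size alone *Cd28* in total RNA was 0.026, and with DESeq2 0.0016. *Tigit* in RPF was -0.0090 with upper quartile factors, -0.019 with the exact test of edgeR and -0.011 with no filter. *Lag3* in TE was 0.031 with upper quartile factors and 0.00090 with no filter, under which 214 genes rose in TE. The causes of these shifts were not tested.

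Leaving out 1 library number of a genotype at a time, 122 to 367 genes rose and 415 to 812 fell in TE. Rises numbered 125, 122 and 227 without control 1, 2 or 3 and 136 and 173 without *Rnmt* cKO 1 or 2, and falls 415, 443 and 418 without control 1, control 2 or *Rnmt* cKO 1, against 346 and 701 in all libraries. *Cd28* ranged from -0.054 to 0.065, *Icos* from -0.13 to 0.018 and *Tigit* from -0.53 to 0.82 in total RNA. *Tigit* ranged from -0.44 to 0.29 in RPF. In TE *Pdcd1* ranged from -0.087 to 0.12, *Btla* from -0.029 to 0.075, *Lag3* from -0.12 to 0.15 and *Tigit* from -0.59 to 0.12.

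Replicate numbers were not shown to pair the genotypes: deviations of equally numbered control and *Rnmt* cKO libraries from their group means correlated at -0.31, -0.22 and -0.56 in total RNA and 0.28, -0.05 and 0.10 in RPF, over 7453 genes. With a replicate block 2455 genes rose and 2751 fell in total RNA, 1596 and 1636 in RPF, and 313 and 635 in TE. The replicate block changed no call of a member, while *Tigit* in RPF was -0.079 and *Lag3* in TE 0.0028. Total RNA and RPF libraries of equal number and genotype correlated at 0.14, 0.22 and 0.34 in controls and at 0.06, 0.35 and 0.17 in *Rnmt* cKO cells, each highest with its own number, which is a hint from the data and not from the design. With a block that joins libraries of equal number and genotype, *Lag3* in TE was 0.012 and 426 genes rose and 777 fell.

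Depth limits the statements on *Havcr2* and *Tigit*, which rest on 2 to 64 reads per total RNA library, and RPF libraries were the shallower ones. TE combines both kinds, and its intervals were the widest for most members. With 3 libraries per genotype, a missed threshold does not show that a receptor gene was unchanged.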
